A study of Mus musculus with 3 samples.

Results

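Interferon stimulated genes are genes whose transcription is switched on by interferons, and 39 of them were followed by symbol through 3 sorted mouse bone marrow populations. The gene table of the deposited matrices held 38 of the 39, and Mx2 was not analysed here. A gene was used when it had 10 or more unique molecular identifiers (UMIs, the molecule count of a droplet library) over the 3 libraries, and all 38 passed, from 37 UMIs for Mx1 to 2421 for Bst2. They are 38 of 27998 genes in the table and 38 of 12361 genes with 10 or more UMIs. The cells came from C57BL/6J mice, and no allele, agent or treatment is given for them there. The gate for LMPP, the lymphoid-primed multipotent progenitors, was cKit+Sca1+Flt3+IL7Ra-B220-, that for common lymphoid progenitors (CLP) was cKit+Sca1+Flt3+/-IL7Ra+B220-, and that for pro-B cells was cKit+Sca1-Flt3-IL7Ra+B220+. Each population was 1 library, made with droplet chemistry that counts transcript 3-prime ends. The number of mice behind each library, their age and any pooling are not given in the labels. Differences below therefore compare 3 libraries, no p-value was computed, and every interval is a 95% interval that covers counting error only.

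Interferons signal through cell surface receptors and kinases of the Jak family, among them Jak1, Jak2 and Tyk2, to STAT proteins. Type I interferon acts through a complex that holds Stat2 and Irf9 and binds the interferon stimulated response element, while interferon gamma acts on the gamma activated site. The genes so induced block virus entry, replication and release, feed back on the pathway itself, or, as with the interferon inducible GTPases, act on membranes around intracellular microbes. Hematopoietic stem and progenitor cells are known to transcribe part of this set without infection.

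The response element that this complex binds was looked for in the promoters, and a few are printed first to show it. RefSeq promoters on GRCm38.p6, running from 250 bases before to 50 bases after the start site, were matched by symbol for 29 of the 38 genes, with 33 promoters in all. The response element was searched on both strands as GAAA, any 2 bases, then GAAA, with overlapping matches kept. It was found in 18 of 29 genes (62.1%) and in 19 of 33 promoters (57.6%), against 3.99% of the 27025 genes and 3.44% of the 32851 promoters in the whole table. The gamma activated site, searched as TTCNNNGAA, which reads the same on both strands, was found in 9 of 29 genes (31.0%) against 9.55% of all genes. Its matches were not filtered for overlap with the response element. The sequences below are read 5′ to 3′ on the strand of the gene, capitals mark matches to the response element, and bases inside the GENCODE M21 gene model were left off, except for Gbp2, whose match lies inside it and is shown with 10 bases on either side. Isg15, Ifit1 and Rsad2 are shown as classical type I targets, Bst2 as the most abundant gene, Oas1a and Gbp2 as genes higher in pro-B than in CLP, and Oasl2 as the gene with the largest ratio between LMPP and CLP.
Isg15, chr4:156200819-156200968, minus strand: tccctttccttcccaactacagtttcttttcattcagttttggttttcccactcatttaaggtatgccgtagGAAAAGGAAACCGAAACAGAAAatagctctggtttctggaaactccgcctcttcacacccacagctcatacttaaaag
Ifit1, chr19:34640739-34640870, plus strand: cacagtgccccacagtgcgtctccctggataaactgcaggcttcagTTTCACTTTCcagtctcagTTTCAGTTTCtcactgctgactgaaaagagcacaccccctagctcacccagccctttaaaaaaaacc
Rsad2, chr12:26456453-26456602, minus strand: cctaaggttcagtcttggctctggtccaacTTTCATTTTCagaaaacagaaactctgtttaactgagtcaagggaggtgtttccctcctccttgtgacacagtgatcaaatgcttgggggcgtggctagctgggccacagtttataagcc
Bst2, chr8:71537473-71537622, minus strand: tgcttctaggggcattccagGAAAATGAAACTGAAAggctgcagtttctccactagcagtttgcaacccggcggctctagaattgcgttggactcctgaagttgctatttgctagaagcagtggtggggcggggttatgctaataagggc
Oas1a, chr5:120907526-120907675, minus strand: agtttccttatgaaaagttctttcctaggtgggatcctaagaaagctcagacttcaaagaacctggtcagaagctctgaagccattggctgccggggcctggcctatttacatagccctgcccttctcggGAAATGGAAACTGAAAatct
Gbp2, chr3:142620594-142620623, plus strand: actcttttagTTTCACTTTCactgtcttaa
Oasl2, chr5:114896784-114896933, plus strand: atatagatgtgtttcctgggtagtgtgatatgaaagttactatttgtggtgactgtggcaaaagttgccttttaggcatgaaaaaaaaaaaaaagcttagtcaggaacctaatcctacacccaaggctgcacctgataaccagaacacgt

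Isg15 carried 3 overlapping matches in 1 run, at 78, 72 and 66 bases before its start. Ifit1 carried a pair at 104 and 85 bases, Bst2 an overlapping pair at 130 and 124 bases, and Oas1a an overlapping pair at 20 and 14 bases before the start. Rsad2 had 1 match 120 bases before the start and Gbp2 1 match at 59 bases. Over all 18 genes, 24 of 27 matches lay before the RefSeq start, at 14 to 222 bases from it. Oasl2, Irf7, Irf9, Oasl1, Ifit2, Cmpk2, Samhd1, Xaf1, Ifi35, Ifi47 and Dtx3l had no match in the window, which says only that these letters are not in it. The 18 genes with a match and the 11 without one had median log2 ratios of −0.35 and −0.46 from LMPP to CLP, of −0.82 and −0.18 from CLP to pro-B, and of −0.98 and −0.64 from LMPP to pro-B. Dhx58, Iigp1, Mx1, Oas2, Parp14, Parp9, Rtp4, Usp18 and Zbp1 were not in the promoter table.

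**Figure D1:**
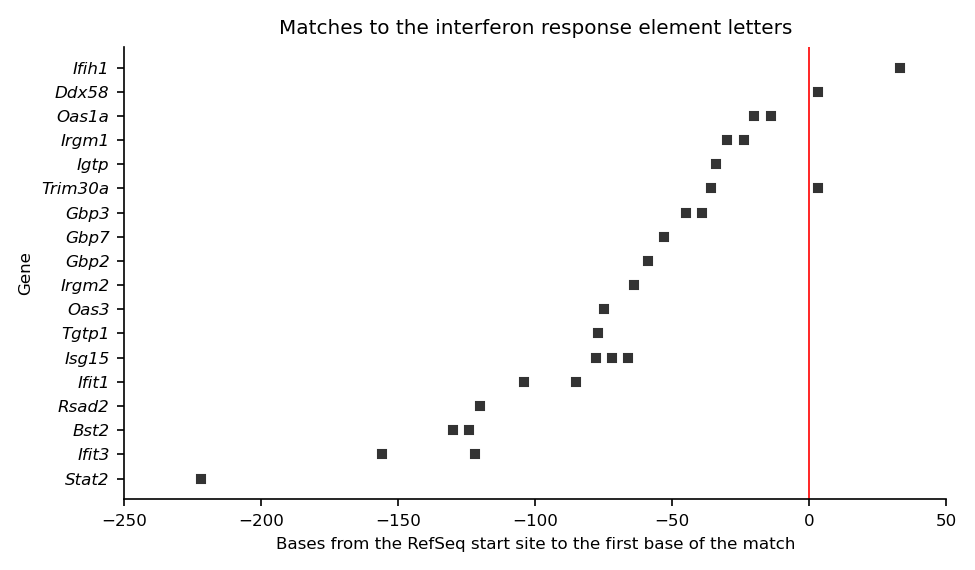
Position of each match to GAAA, any 2 bases, GAAA, or to its reverse complement, in the promoters of 18 interferon stimulated genes. The x axis gives bases from the RefSeq start site (red line) to the first base of the match, each square is 1 match, and 24 of the 27 squares lie before the start.

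Many of the genes sit beside each other in the genome (GENCODE M21, GRCm38), so they are not independent of one another in position. Irgm1, Tgtp1 and Ifi47 lie within chr11:48861968-49096974, and Igtp and Irgm2 overlap at chr11:58199556-58222782. Gbp7, Gbp3 and Gbp2 lie within chr3:142530342-142638008, and Ifit2, Ifit3 and Ifit1 within chr19:34550694-34650009. Oas2, Oas3 and Oas1a lie within chr5:120730333-120907521, Oasl2 and Oasl1 within chr5:114896936-114937915. Rsad2 and Cmpk2 share chr12:26442746-26479837, and Parp14, Dtx3l and Parp9 share chr16:35832874-35972605.

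About 3000 cells were loaded per library, per the labels. Of 599, 979 and 1123 deposited barcodes, in the order LMPP, CLP, pro-B used throughout, 579, 948 and 1106 were kept. They held 4014657, 5967352 and 7367156 UMIs, with medians of 6789, 6258.5 and 5687.5 per cell. Ribosomal protein genes took 43.5%, 41.9% and 29.6% of UMIs and so left unequal shares to all other genes. Levels are CPM, a gene's UMIs over the library total, scaled to 1000000, which for 3-prime counts does not grow with gene length. Pairs of libraries shared 1 to 3 cell barcodes. The summed level of 10 B lineage markers was 56.3, 975 and 16780 CPM, and that of 10 stem and multipotent markers 1779, 427 and 21.0 CPM, both in the order of the labels. The CLP library also held a cluster of 117 plasmacytoid dendritic-like cells and one of 17 NK and innate lymphoid-like cells, and the LMPP library one of 19 plasmacytoid dendritic-like cells. Hemoglobin UMIs, from a red cell gene that none of these populations is known to use, were found in 70, 16 and 185 cells.

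The interferon stimulated genes were a small part of each transcriptome and were highest in LMPP. Together the 38 gave 4352, 5227 and 4368 UMIs, or 1084 CPM (1052 to 1117), 876 CPM (852 to 900) and 593 CPM (575 to 611). The intervals do not overlap, and the sum stepped down from LMPP to CLP to pro-B. Bst2 alone gave 711, 1167 and 543 of these UMIs, and without it the sums were 907, 680 and 519 CPM in the same order. LMPP was the highest library for 27 of the 38 genes, against 32.9% of all genes with 10 or more UMIs. Pro-B was the lowest for 28 of the 38, against 46.1% of all genes. CLP was the highest for 7 genes, against 29% of all genes, and pro-B for 4, against 38.1%.

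**Figure D2:**
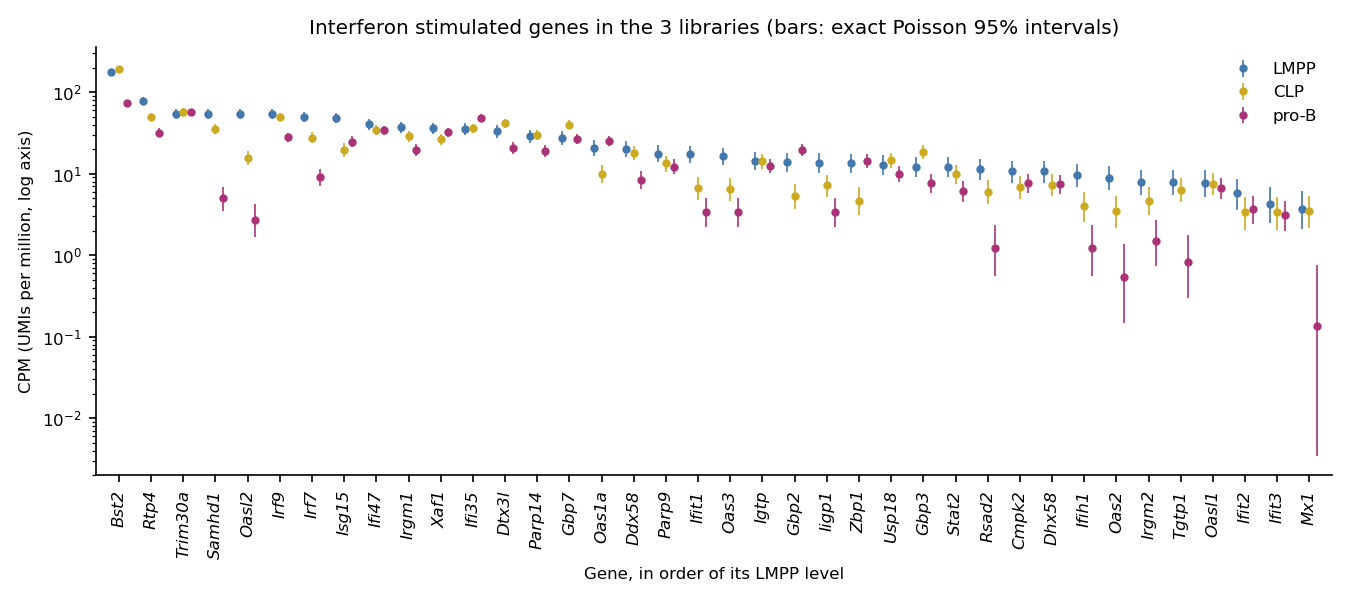
Level of each of the 38 genes in LMPP, CLP and pro-B, in CPM on a log axis, with genes in order of their LMPP level and bars for exact Poisson 95% intervals. Bst2 stands at 177, 196 and 73.7 CPM, while Mx1, at the other end, rests on 15, 21 and 1 UMIs.

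From LMPP to CLP, 9 of 38 genes (23.7%) were 2-fold or more lower and 0 were 2-fold or more higher, against 6.97% and 8.01% of all genes with 10 or more UMIs. The 9 were Oasl2, Zbp1, Gbp2, Ifit1, Oas2, Oas3, Isg15, Ifih1 and Oas1a. The median log2 ratio of the 38 was −0.43, against −0.01 over all genes. Restricted to genes that reached 10 CPM in the library where they were higher, 7 of 30 were 2-fold or more lower and 0 higher, against 3.59% and 4.36% of all such genes. Oas1a was less than 2-fold lower once the dendritic-like and innate lymphoid-like clusters were left out.

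From CLP to pro-B, 14 of 38 genes (36.8%) were 2-fold or more lower and 3 (7.89%) were 2-fold or more higher, against 21.1% and 13.1% of all genes. The 14 were Mx1, Tgtp1, Samhd1, Oas2, Oasl2, Rsad2, Ifih1, Irgm2, Irf7, Bst2, Gbp3, Ddx58, Iigp1 and Dtx3l, and the 3 were Gbp2, Zbp1 and Oas1a. Of those that reached 10 CPM, 7 of 23 were lower and 3 higher, against 13.6% and 13.9% of all such genes. The share of higher genes was at or below that of all genes. Gbp3, Ddx58, Iigp1 and Dtx3l were less than 2-fold lower when each cell was given equal weight. The median log2 ratio was −0.66, against −0.09 over all genes. Scaling without mitochondrial and ribosomal protein genes moves every log2 ratio of pro-B over CLP by −0.31 and of pro-B over LMPP by −0.34, and median-of-ratios scaling moves both by −0.29. Ratios near 0 in these comparisons therefore have no fixed sign. Of 9 genes above 0 in pro-B over CLP, 5 stayed above it under both scalings, namely Gbp2, Zbp1, Oas1a, Ifi35 and Isg15. For pro-B over LMPP, Gbp2 and Ifi35 stayed above 0 of 5 genes.

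Pro-B and LMPP, the 2 ends of the series, differed the most. Of the 38 genes, 15 (39.5%) were 2-fold or more lower in pro-B and 0 were 2-fold or more higher, against 21.9% and 14.2% of all genes. Of those that reached 10 CPM the counts were 10 and 0 of 30, against 14.7% of all such genes in either direction. The median log2 ratio was −0.80, against −0.08 over all genes. The 3 comparisons share libraries, so they are not independent of each other. The order LMPP over CLP over pro-B held for 22 of 38 genes (57.9%) as point values, against 25.2% of all genes, and several neighbours in that order lay within counting error.

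**Figure D3:**
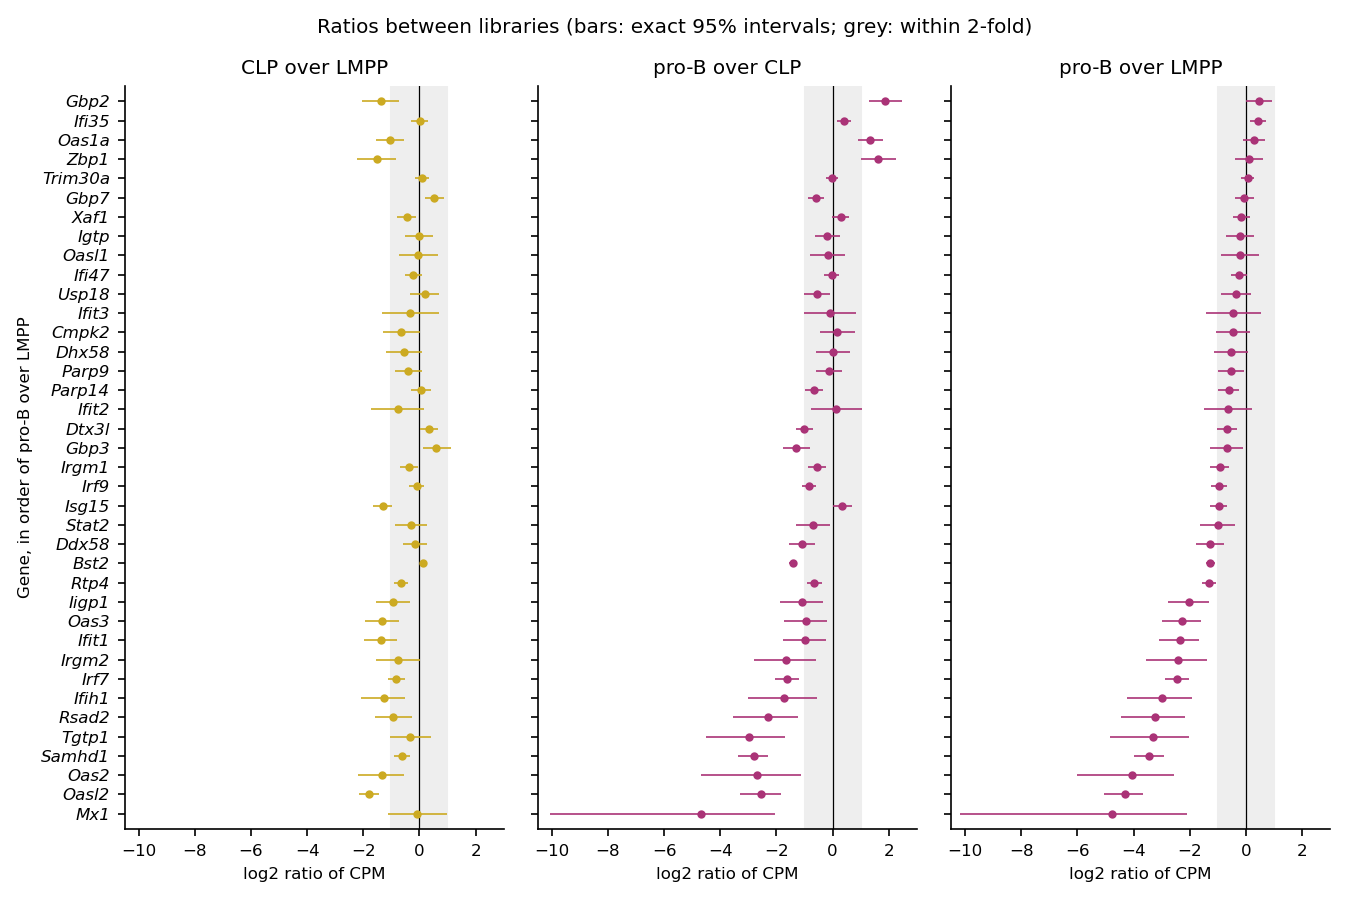
Log2 ratio of CPM of the 38 genes in the 3 comparisons, with genes in order of pro-B over LMPP, bars for exact 95% intervals of a ratio of counts and grey for less than 2-fold. The CLP over LMPP values end at −1.78 (Oasl2), while pro-B over LMPP reaches −4.32 for Oasl2 and −4.05 for Oas2.

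The genes that relay the signal were lower in pro-B. Irf7, the transcription factor that amplifies type I interferon, had 198, 166 and 67 UMIs in LMPP, CLP and pro-B, or 49.3, 27.8 and 9.09 CPM. All 3 intervals stood apart, and Irf7 was 1.77-fold lower in CLP than in LMPP and 3.06-fold lower (2.29 to 4.13) in pro-B than in CLP. Irf9, a DNA binding subunit of the complex that holds Stat2, had 216, 299 and 206 UMIs, or 53.8, 50.1 and 28.0 CPM. It was level between LMPP and CLP within counting error and 1.79-fold lower in pro-B than in CLP. Stat2 had 49, 59 and 45 UMIs, or 12.2, 9.89 and 6.11 CPM, and was 1.62-fold lower (1.08 to 2.44) in pro-B than in CLP.

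Sensors of foreign nucleic acid did not move as 1 group. Ddx58, which encodes the RNA sensor RIG-I, had 81, 107 and 62 UMIs, or 20.2, 17.9 and 8.42 CPM, and was 2.13-fold lower in pro-B than in CLP. Ifih1, which encodes the RNA sensor MDA5, had 39, 24 and 9 UMIs and was 2.42-fold lower (1.47 to 4.20) in CLP than in LMPP. Dhx58, the regulator LGP2 of both sensors, had 43, 44 and 55 UMIs, and its levels of 10.7, 7.37 and 7.47 CPM overlapped in their intervals. Zbp1, a sensor of left-handed nucleic acid that can start necroptosis, ran the other way from Ifih1 at the second step, with 54, 28 and 106 UMIs or 13.5, 4.69 and 14.4 CPM. CLP was the low library for Zbp1, at 2.87-fold below LMPP and with pro-B 3.07-fold above CLP (2.01 to 4.83).

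Isg15, a ubiquitin-like protein that is attached to other proteins after interferon, had 195, 117 and 183 UMIs, or 48.6 CPM (42.0 to 55.9), 19.6 CPM (16.2 to 23.5) and 24.8 CPM (21.4 to 28.7). It was 2.48-fold lower in CLP than in LMPP, while CLP and pro-B overlapped in their intervals. Usp18, the protease that removes Isg15 and also restrains the type I receptor, had 52, 88 and 74 UMIs, or 12.95, 14.7 and 10.0 CPM. Usp18 thus did not show the low CLP level of Isg15, and its widest ratio was 1.47-fold, between CLP and pro-B. The enzymes that attach Isg15 were on a separate list. Among them Ube2l6, the conjugating enzyme, had 240, 108 and 705 UMIs (59.8, 18.1 and 95.7 CPM), Uba7, the activating enzyme, 192, 255 and 186, and Herc6, the ligase of the mouse, 53, 87 and 110. Ube2l6 and Isg15 were both lowest in CLP, but Ube2l6 was above its LMPP level in pro-B.

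The oligoadenylate synthetases make a short nucleotide polymer that activates RNase L. Of the 5 genes of this family, 4 were 2-fold or more lower in CLP than in LMPP, against 6.97% of all genes. They were Oasl2, Oas2, Oas3 and Oas1a, and Oas1a was not once the dendritic-like and innate lymphoid-like clusters were left out. Oasl2, an OAS-like protein, had 217, 94 and 20 UMIs, or 54.1, 15.8 and 2.71 CPM. Its 3 levels were far apart, at 3.43-fold (2.68 to 4.42) from LMPP to CLP and 5.80-fold (3.55 to 9.93) from CLP to pro-B. Oas2 had 36, 21 and 4 UMIs and Oas3 had 66, 39 and 25. Oas2 was 6.48-fold lower in pro-B than in CLP with an interval of 2.19 to 26.0, which its 4 pro-B UMIs leave wide. Oas1a went the other way at this step, with 84, 60 and 187 UMIs or 20.9, 10.1 and 25.4 CPM and a log2 ratio of 1.34 (0.91 to 1.78) for pro-B over CLP. Oasl1, which also limits Irf7 translation, had 31, 45 and 49 UMIs, and its levels of 7.72, 7.54 and 6.65 CPM lay within counting error of each other. Oas1a has near copies, among them Oas1g with 13, 8 and 6 UMIs, and reads could be divided between copies.

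The IFIT proteins bind viral RNA and were among the rarest of the set. Ifit1 had 70, 40 and 25 UMIs, or 17.4, 6.70 and 3.39 CPM, and was 2.60-fold lower (1.74 to 3.94) in CLP than in LMPP. Ifit2 had 23, 20 and 27 UMIs and Ifit3 had 17, 20 and 23, and neither differed between libraries beyond counting error. Ifit3 UMIs were gathered in few cells, and the 5 cells richest in it held 14 of 17, 13 of 20 and 11 of 23 UMIs. Ifit1 and Ifit3 have near copies in the mouse, so their counts are uncertain in the same way.

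Of 3 enzymes that act on nucleotides, Samhd1 and Rsad2 were 2-fold or more lower in pro-B than in CLP and Cmpk2 was not. Among all genes 21.1% were 2-fold or more lower in this comparison. Samhd1, which degrades the nucleotides needed for reverse transcription, had 218, 210 and 37 UMIs, or 54.3, 35.2 and 5.02 CPM. Its pro-B level was 7.01-fold below CLP (4.92 to 10.2) and 10.8-fold below LMPP (7.60 to 15.8). Rsad2, which encodes viperin and makes a chain terminating nucleotide, had 46, 36 and 9 UMIs and was 4.94-fold lower (2.33 to 11.7) in pro-B than in CLP. Its genome neighbour Cmpk2, a mitochondrial nucleotide kinase, had 43, 41 and 57 UMIs and levels of 10.7, 6.87 and 7.74 CPM. Its pro-B over CLP log2 ratio of 0.17 (−0.43 to 0.79) fell below 0 under both other scalings, so it has no fixed sign.

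Among proteins that hold virus at the membrane or capsid, Bst2 was the most abundant gene of the whole set. Bst2 encodes tetherin, which keeps budding virions on the cell and is also a surface marker of plasmacytoid dendritic cells, and it had 711, 1167 and 543 UMIs or 177 CPM (164 to 191), 196 CPM (185 to 207) and 73.7 CPM (67.6 to 80.2). It was 2.65-fold lower in pro-B than in CLP. Of the 1167 CLP UMIs, 447 came from the 117 plasmacytoid dendritic-like cells, and of the 711 LMPP UMIs, 97 came from 19 such cells. Without the dendritic-like and innate lymphoid-like clusters, pro-B was less than 2-fold below CLP. Mx1, a GTPase that traps viral nucleocapsids, had 15, 21 and 1 UMIs, and its pro-B over CLP log2 ratio of −4.70 has an interval of −10.07 to −2.06. Trim30a, which restrains Toll-like receptor signalling and has near copies, had 219, 346 and 420 UMIs and stayed at 54.6, 58.0 and 57.0 CPM.

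The interferon inducible GTPases differed from each other within their families. Immunity related GTPases, which act on vacuoles around microbes, had point log2 ratios below 0 for all 6 genes in both steps, as had 6123 of 12111 genes from LMPP to CLP and 6614 of 12248 from CLP to pro-B. For 3 of 6, Tgtp1, Irgm2 and Iigp1, the pro-B level was 2-fold or more below CLP, against 21.1% of all genes, and for Iigp1 not when each cell had equal weight. Irgm1, a regulator of the family and of autophagy, had 149, 172 and 144 UMIs, or 37.1, 28.8 and 19.5 CPM. Ifi47 had 162, 208 and 251 UMIs and was level, at 40.4, 34.9 and 34.1 CPM. Igtp had 58, 85 and 92 UMIs, or 14.4, 14.2 and 12.5 CPM, also level. Irgm2, whose gene model overlaps that of Igtp, had 32, 28 and 11 UMIs, Iigp1 had 55, 43 and 25, and Tgtp1, which has a near identical copy, had 32, 38 and 6. These 3 were the rarest of the family in pro-B, at 1.49, 3.39 and 0.81 CPM.

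Guanylate binding proteins, large GTPases that coat microbial membranes, ran in different directions. Gbp2 had 56, 32 and 143 UMIs, or 13.9, 5.36 and 19.4 CPM, with CLP 2.60-fold below LMPP (1.65 to 4.15) and a log2 ratio of 1.86 (1.29 to 2.46) for pro-B over CLP. Gbp3 was the mirror image, with 49, 111 and 56 UMIs or 12.2, 18.6 and 7.60 CPM, and was 2.45-fold lower in pro-B than in CLP. Gbp7 had 111, 239 and 197 UMIs, or 27.6, 40.1 and 26.7 CPM, and was also highest in CLP. The 3 genes lie side by side on chromosome 3 and belong to a family of similar sequences, so reads could be divided between them.

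Parp9, Parp14 and Dtx3l lie together on chromosome 16, and Parp9 and Dtx3l form an ADP-ribosylating ubiquitin ligase. Dtx3l had 133, 250 and 153 UMIs, or 33.1, 41.9 and 20.8 CPM, and was 2.02-fold lower (1.64 to 2.48) in pro-B than in CLP. Parp9 had 71, 80 and 90 UMIs, or 17.7, 13.4 and 12.2 CPM, and Parp14, which modifies proteins with single ADP-ribose units, had 116, 179 and 139, or 28.9, 30.0 and 18.9 CPM. In all 3 genes the point value was lowest in pro-B, as for 46.1% of all genes. For Parp9 the CLP and pro-B levels lay within counting error of each other.

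The other 3 genes differed from each other. Ifi35, a partner of Nmi, had 144, 215 and 355 UMIs, or 35.9, 36.0 and 48.2 CPM, and was level between LMPP and CLP and higher in pro-B, with a pro-B over CLP log2 ratio of 0.42 (0.17 to 0.67). Xaf1, an antagonist of an inhibitor of apoptosis, had 145, 157 and 237 UMIs, or 36.1, 26.3 and 32.2 CPM. Rtp4, known as a chaperone of G protein coupled receptors, had 316, 298 and 235 UMIs, or 78.7, 49.9 and 31.9 CPM, and stepped down by 1.58-fold and 1.57-fold with intervals that did not overlap.

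Few cells carried any 1 of these genes. To compare cells of different depth, each was thinned at random to 2000 UMIs, which left out 6, 40 and 36 shallower cells and kept 573, 908 and 1070. After thinning, a UMI of a given gene was found in a median of 2.97%, 2.37% and 2.29% of LMPP, CLP and pro-B cells. Of the 38 genes, 23, 27 and 26 were found in fewer than 5% of cells, and 35, 37 and 36 in fewer than 10%. The widest was Bst2 in LMPP and CLP, at 27.1% and 25.7% of cells, and Trim30a in pro-B, at 14.8%. Isg15 was found in 6.98% (5.03 to 9.38), 3.63% (2.51 to 5.07) and 4.67% (3.49 to 6.11) of cells, against 17.8%, 9.49% and 10.7% before thinning. Any of the pooled hemoglobin genes was found in 5.76%, 0.661% and 5.89% of thinned cells. A higher share than this pooled one was reached by 14, 35 and 10 single genes of the LMPP, CLP and pro-B libraries. The shares of the others are not read as numbers of expressing cells.

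Taken as a set, the genes reached most cells. A UMI of any of the 38 was found in 80.1% (76.6 to 83.3) of thinned LMPP cells, 75.1% (72.2 to 77.9) of CLP cells and 67.1% (64.2 to 69.9) of pro-B cells. Without thinning these shares were 98.8%, 94.8% and 92.0%. The median thinned cell had 1 of the genes in every library, and 7.50%, 3.52% and 4.58% of cells had 5 or more. The count per cell was wider than counting alone gives, with a variance of 3.14, 1.73 and 2.39 times the mean. The tenth of cells with the most UMIs held 36.0%, 31.9% and 37.8% of the set's UMIs.

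**Figure D4:**
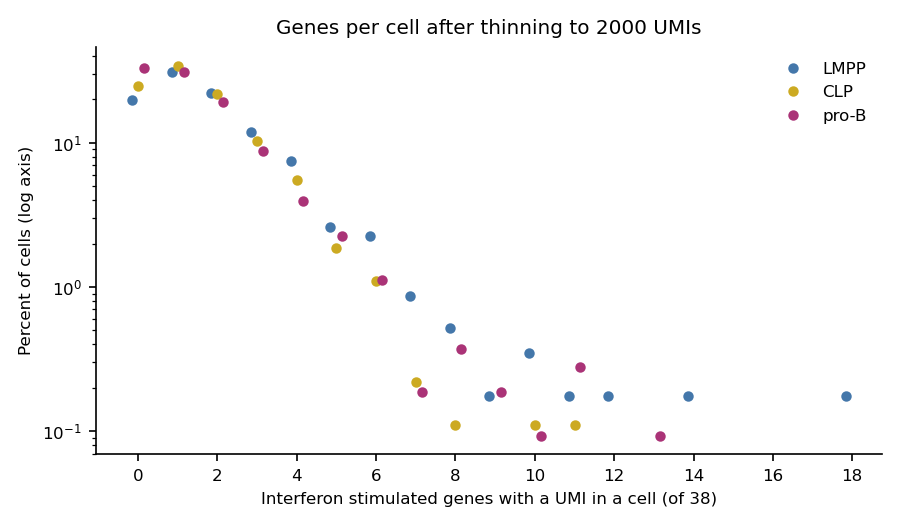
Percent of cells (log axis) by the number of the 38 genes with a UMI after thinning to 2000 UMIs, for LMPP, CLP and pro-B, with points set slightly apart and numbers held by 0 cells not drawn. Most cells hold 0 to 3 of the genes, and the highest thinned cell of each library, in that order, reaches 18, 11 and 13. Cells below 2000 UMIs are not drawn.

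A few cells carried many of the genes at once. Isg15, Ifit1, Ifit3, Rsad2, Usp18 and Irf7 were taken as 6 classical targets, chosen after their values were seen. Without thinning, 27 of 579 LMPP cells (4.66%) had UMIs of 3 or more of the 6 and held 238 of 578 of their UMIs (41.2%). In CLP 23 of 948 cells (2.43%) held 27.6%, and in pro-B 13 of 1106 cells (1.18%) held 19.9%. The richest LMPP cell had UMIs of all 6 and of 29 of the 38 genes, 94 of its 6339 UMIs, and the next had 95 of 14823 over 29 genes. The richest pro-B cell by genes had 24 of the 38 and 46 of only 1942 UMIs. None of the 5 richest cells of any library was called a doublet, though the caller marked 0 cells in the pro-B library. In thinned cells, pairs among the 6 were found together 61, 13 and 36 times, against 11.2, 5.89 and 4.99 from the product of single shares. Over all 666 pairs of the genes without Bst2 the excess was smaller, with 1294, 931 and 1435 joint detections against 753, 679 and 800 (1.72, 1.37 and 1.79 times). The cells in these counts were of equal depth.

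Within libraries, cells were clustered without the 38 genes, so their levels in clusters were not used to form them. In the LMPP library the sum without Bst2 ran from 580 CPM (537 to 624) in cluster 0 to 1217 CPM (1137 to 1301) in cluster 3. Cluster 0 holds 142 cells led by S phase genes such as Exo1, Hells and Lig1, and cluster 3 holds 122 cells led by genes that include Pf4 and Procr, the latter a marker of stem cells. The 19 plasmacytoid dendritic-like cells of cluster 5 were as low as cluster 0, at 583 CPM (470 to 715). UMIs of S phase genes were at 919 CPM in cluster 5, 1014 CPM in cluster 0 and 197 to 252 CPM in clusters 1 to 4. Cluster 5 also differed in cell type markers, and the part of the cell cycle in these levels was not tested. The mitotic cluster 4, led by Ccnb2 and Cenpa, was at 1021 CPM. Per cell, clusters 0 and 5 held 4.94 and 4.84 UMIs of these genes and clusters 1 to 4 held 6.27 to 7.13. Gbp2, Ifit1 and Isg15 were at 36.8, 38.2 and 76.5 CPM in cluster 3 and at 9.09, 8.27 and 20.7 CPM in cluster 0. In cluster 3 these UMIs lay in few cells, with 26 of Gbp2 in 22 cells, 27 of Ifit1 in 10 and 54 of Isg15 in 20. Of the 5 LMPP cells richest in the 6 classical targets, 3 were in cluster 3 and held 94, 60 and 35 of its 951 UMIs of the 38 genes. Cluster 2, led by immediate early genes such as Fos and Junb, was at 1086 CPM.

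In CPM without Bst2, CLP clusters were closer together, from 450 (369 to 545) in the 24 B lineage-like cells of cluster 5 to 782 (736 to 830) in cluster 2. The leading genes of cluster 2 include Cd79a and Pax5. Per cell, clusters 5 and 2 held 4.42 and 4.81 UMIs of these genes. Over all CLP clusters the count per cell ran from 2.31 in cluster 1 to 5.53 in cluster 0, so the closeness holds for CPM only. The plasmacytoid dendritic-like cells of cluster 3 were at 538 CPM without Bst2 and carried Bst2 at 527 CPM, against 114 to 176 CPM in clusters 0, 1, 2 and 4. Irf7, a gene known for its high level in mature plasmacytoid dendritic cells, was at 11.8 CPM there, below the 27.8 CPM of the whole library. Samhd1 stood out in the 17 NK and innate lymphoid-like cells, with 13 UMIs or 159 CPM.

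In the pro-B library 1 cluster stood apart. Cluster 0, with 403 cells, was at 1089 CPM (1030 to 1149) without Bst2, and clusters 1 to 4 were at 475, 360, 504 and 159 CPM. Cells of cluster 0 also had a median of 2823 UMIs, against 6531.5, 8939, 8501 and 15972.5, and fewer UMIs of S phase genes, at 262 CPM against 1172 to 2810. Counted per cell and without Bst2, the genes gave 3.25 UMIs in cluster 0 and 3.36, 3.41, 4.32 and 2.58 in clusters 1 to 4. The CPM of cluster 0 was thus higher over a smaller total, with a like number of molecules per cell, and the part of total RNA per cell in the CPM difference was not tested. Gbp2, Zbp1 and Trim30a reached 51.6, 43.3 and 112 CPM in cluster 0. Without this cluster the median log2 ratio of pro-B over LMPP was −1.21 instead of −0.80, 23 genes instead of 15 were 2-fold or more lower, and Zbp1 was no longer 2-fold or more higher in pro-B than in CLP.

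**Figure D5:**
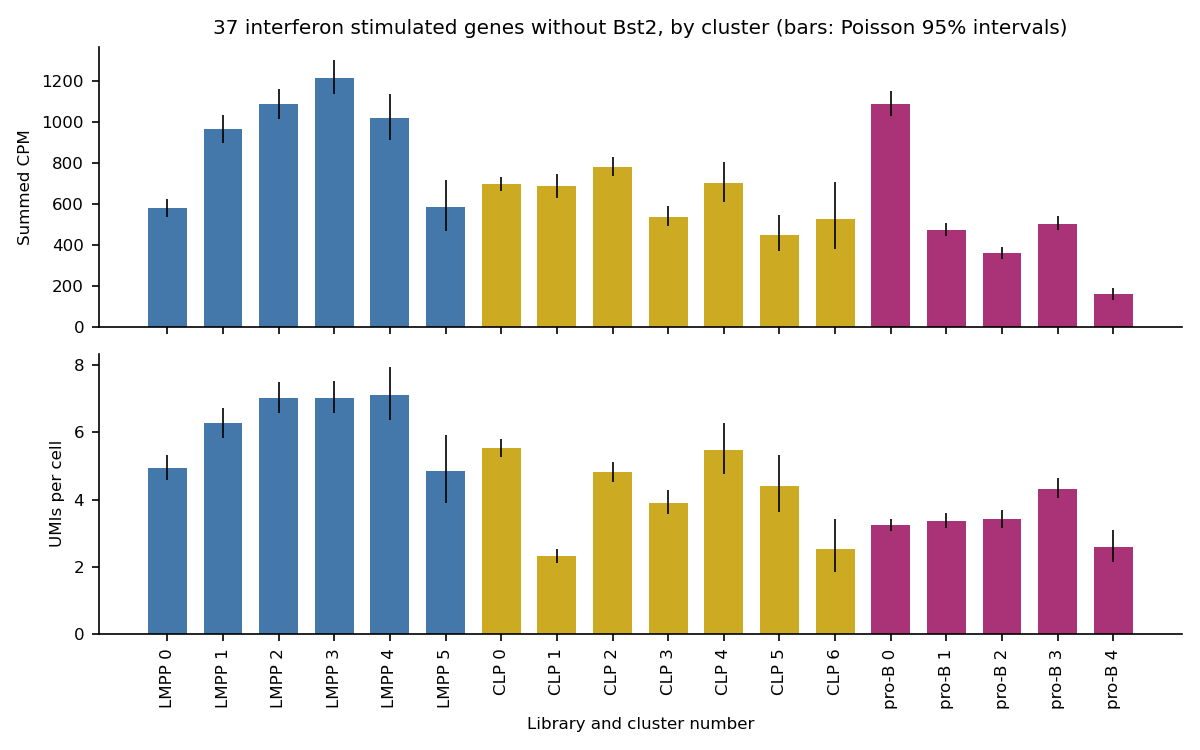
Summed level of 37 of the genes (without Bst2) in clusters of each library, as CPM (upper panel) and as UMIs per cell (lower panel), with Poisson 95% intervals. Pro-B cluster 0 is the highest pro-B bar in CPM at 1089, yet holds 3.25 UMIs per cell, close to clusters 1 and 2.

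Interferons themselves were not detected beyond traces. Of 13 ligand genes searched, including Ifnb1, Ifng and 6 interferon alpha genes, 12 had 0 UMIs in every library, where a floor of 3 UMIs corresponds to 0.747, 0.503 and 0.407 CPM, and Ifnz had 0, 1 and 5. The type I and interferon gamma receptors were present in all 3 libraries. Ifnar2 and Ifnar1, the chains of the type I receptor, had 452, 610 and 376 UMIs and 150, 323 and 193 UMIs, and both were lowest in pro-B in CPM. Ifngr1 and Ifngr2, the chains of the interferon gamma receptor, had 279, 377 and 367 UMIs and 107, 268 and 336 UMIs. Of 8 receptor and kinase genes with a CLP over LMPP ratio, 0 were 2-fold or more higher or lower. Among all genes 8.01% were higher and 6.97% lower in that comparison. From CLP to pro-B, 1 of 9 was 2-fold or more higher and 2 lower, against 13.1% and 21.1% of all genes. The higher was Ifnlr1, with 0, 0 and 11 UMIs, and its 2.97-fold ratio is a bound set by the floor of 3 UMIs.

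Transcription factors of the pathway outside the 38 had a median log2 ratio of 0.14 from LMPP to CLP and −0.30 from CLP to pro-B. Of 11 such factors, 1 was 2-fold or more higher and 0 lower in CLP than in LMPP, against 8.01% and 6.97% of all genes. It was Irf8, a factor of dendritic and B lineage cells, with 502, 2749 and 1129 UMIs. From CLP to pro-B, 1 factor was 2-fold or more higher and 1 lower, against 13.1% and 21.1% of all genes. The higher was Irf5, with 81, 76 and 319 UMIs, and the lower was Irf8, by 3.01-fold. Irf8 was among the markers 2-fold or more higher in the 117 plasmacytoid dendritic-like CLP cells than in other CLP cells. Among 9 brakes on interferon signalling, 3 were 2-fold or more lower in pro-B than in CLP and 0 higher, against 21.1% and 13.1% of all genes. They were Socs1 with 79, 248 and 35 UMIs, Socs3 with 51, 85 and 9, and Irf2bp2 with 247, 633 and 151. Of 13 sensors and adaptors with 10 or more UMIs, 6 were 2-fold or more lower in pro-B than in CLP and 0 higher, against the same shares. The DNA sensor cGAS (Mb21d1) had 56, 91 and 13 UMIs, its partner STING (Tmem173) 197, 483 and 106, and the RNA receptor Tlr7 36, 74 and 5. Unc93b1, the chaperone of endosomal Toll-like receptors, ran upward at 52.1, 101 and 174 CPM.

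Genes of class I antigen presentation, which interferon also induces, were abundant in all 3 libraries. Of 14 class I antigen presentation genes, 9 had a pro-B over CLP log2 ratio above 0, against 5634 of 12248 genes. The median was 0.18, a size at which the sign changes under either other scaling. In this comparison 1 of the 14 was 2-fold or more higher and 1 lower, against 13.1% and 21.1% of all genes. The higher was Psmb10, an immunoproteasome subunit, by 1.01 on the log2 scale, which either other scaling takes below 2-fold. B2m, the light chain of class I molecules, had 8979, 11361 and 17991 UMIs. Of 39 further interferon stimulated genes with 10 or more UMIs, 7 were 2-fold or more higher and 10 lower in pro-B than in CLP, against 13.1% and 21.1% of all genes, with a median of −0.43. Lgals9, a galectin, had 285, 580 and 3904 UMIs, and Phf11b and Slfn8 had 81, 85 and 12 and 92, 173 and 35.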

How the data were processed

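Single cells of 3 bone marrow populations were profiled, 1 library each. The deposited matrices give whole UMI counts by gene and barcode. Per the submitters' processing notes, the authors used Cell Ranger and mm10, and its version, annotation and cell calling are not given there. The counting could divide molecules between near-identical genes. The labels also describe cultured iLS cells, not analysed here.

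Barcodes under 500 genes or over 10% mitochondrial UMIs were dropped, 20, 31 and 16 (LMPP, CLP, pro-B) for the latter and 1 pro-B barcode for the former. Scrublet called 25, 16 and 0 cells as doublets, which were kept. Counts were summed per library and divided by its total. Levels have exact Poisson intervals and ratios exact conditional (Clopper-Pearson) intervals, and a difference was counted at 2-fold. A count of 0 was set to a floor of 3 UMIs. Shares came from cells thinned to 2000 UMIs, with Clopper-Pearson intervals. Each library was clustered without the 38 genes (2000 variable genes, 20 components, 15 neighbours, Leiden resolution 0.5).

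The 39 genes, the pathway and marker lists and the rules were chosen with earlier results of these data known. Counts are given for genes with 10 CPM or more in a library or a ratio of 4-fold or more, and the 3 others were added for their families. Only the ratios, their intervals and the thinning were tested on simulated counts, which held counting error alone. Python 3.11.15, SciPy 1.17.1 and scanpy 1.11.5 were used. Alternatives covered scaling, cell filters, doublets, cell weights, clusters left out, count minimum and thinning depth, and leaving out the 5 richest cells per library or pro-B cluster 0 was added after seeing the data.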

Additional observations from a re-analysis of the deposited data

How the results depend on the processing

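Medians, counts and sums were recomputed under alternatives of scaling, cell filters, doublets, cell weight, clusters or cells left out and count minimum, and shares of cells under other thinning depths and without Bst2, 131 values in all. Leaving out pro-B cluster 0 was run for the pro-B comparisons only. Of the 131 values, 96 stayed close to the main value and 35 moved. Only the medians and the log2 ratios of sums could change direction, and 0 did. A count minimum of 1 UMI kept the same 38 genes, so its values could not move. Main median log2 ratios were −0.43 from LMPP to CLP, −0.66 from CLP to pro-B and −0.80 from LMPP to pro-B, and main log2 ratios of the sums −0.31, −0.56 and −0.87. Leaving Bst2 out gave sums of −0.41, −0.39 and −0.80. The other moves concern the pro-B comparisons, given as pro-B over CLP and then over LMPP. Scaling without mitochondrial and ribosomal protein genes gave medians of −0.97 and −1.15 and sums of −0.87 and −1.21, and median-of-ratios scaling −0.95, −1.09, −0.86 and −1.16. Equal weight per cell gave medians of −0.22 and −0.51 and sums of −0.23 and −0.57. Without pro-B cluster 0 the medians were −1.11 and −1.21, the sums −0.86 and −1.17, and 23 genes were 2-fold or more lower than in LMPP. The median over CLP was −0.73 without dendritic-like and innate lymphoid-like clusters. The median over LMPP was −0.68 over genes with 50 or more UMIs and −0.72 without the 5 richest cells per library. The cause of these moves was not tested. The share of cells with any gene, in the order LMPP, CLP, pro-B, was 80.1%, 75.1% and 67.1%, without Bst2 74.0%, 67.1% and 62.5%, without thinning 98.8%, 94.8% and 92.0%, at 1000 UMIs 62.5%, 52.5% and 45.8%, and at 4000 UMIs 94.4%, 92.2% and 78.1%, so each share holds only for its depth. No paired analysis was possible because each population is 1 library.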
